A study of Mus musculus with 24 samples.

Results

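The TFEB/TFE3 double knockout (DKO) of B16-F10 mouse melanoma cells, in which MITF is the only one of the 3 factors studied that is left intact, was compared with its parental cells in 12010 genes. The comparison was defined by genotype and took 6 of the 24 libraries of the series, 3 of the DKO and 3 of the parental line, and every gene of the table was kept. B16F10-luc2 is a line of B16-F10, a melanoma of the C57BL/6 mouse, that carries a luciferase reporter, which all lines share. The parental cells carry the genotype WT, the DKO cells the genotype Tfeb and Tfe3 KO, and the TFE3 KO and TFEB KO lines, with 3 libraries each, were set beside them. The knockouts were made with CRISPR guides and grown out from isolated clones, so the difference between a KO line and the parental line also holds whatever set the founding cell of that clone apart. All lines were grown without treatment in DMEM with 10% serum and 10% CO2. The libraries were made with a forward 3′-end kit primed on the poly(A) tail, so each transcript is counted near its end. Nothing in the labels says that the 3 libraries of a line came from separate cultures, so the p-values measure the spread between these libraries, which may be technical.

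MITF, TFEB, TFE3 and TFEC are basic helix-loop-helix leucine zipper factors that bind as dimers to E-boxes with the core CACGTG and to longer forms of it. In fed cells mTORC1, held at the lysosome by the Rag GTPases and folliculin, phosphorylates TFEB and TFE3 and keeps them in the cytoplasm, and on starvation they enter the nucleus and switch on genes of lysosomes and autophagy. MITF is the factor of melanocyte identity, which drives pigment genes and, in melanoma, genes of proliferation. The comparison asks what changes in gene expression when TFEB and TFE3 are both lost and MITF stays.

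The sites of the guides given for these lines and 5 promoter stretches are shown first, because the results below turn on the genes they belong to. The 2 guides given for these lines were matched to the GRCm39 genome, and each had a site in the coding part of its gene. The study's methods name another guide for Tfe3 as well, and which of them was used for these cells was not settled here. The Tfeb site lies in exon 3 of 9 at chr17:48097370-48097389 (plus strand), and the Tfe3 site in exon 2 of 10 at chrX:7631806-7631825 (minus strand, opposite to the gene). The coordinates cover the 20 bases of the guide, and the capitals mark the 3-base PAM that follows it.
Tfeb site: tggacacgtactgtccacctCGG
Tfe3 site: cgtagaagctgtcaggatcgAGG

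Each promoter stretch is 100 bases from the window of 250 bases before to 50 bases after the canonical GENCODE start of its gene, read 5′ to 3′ on the strand of the gene in GRCm39. Gla is shown for the palindrome TCACGTGA, the fuller E-box of lysosomal genes, which occurs at 2 places in it, and Bnip3 for a plain CACGTG. Mc1r is shown for TCATGTG, the M-box of pigment genes. Ifit3 is shown for the core of the interferon-stimulated response element, GAAA, any 2 bases and GAAA again, which it holds at 2 places on the opposite strand, and Chac1 for TGATGNAA, the element of ATF4 and its partners, also on the opposite strand. The capitals mark these matches.
Gla, chrX:133501905-133502004, minus strand: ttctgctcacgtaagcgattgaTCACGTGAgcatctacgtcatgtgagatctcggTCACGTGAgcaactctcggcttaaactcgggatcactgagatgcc
Bnip3, chr7:138511291-138511390, minus strand: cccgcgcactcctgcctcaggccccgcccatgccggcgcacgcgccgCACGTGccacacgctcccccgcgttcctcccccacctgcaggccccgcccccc
Mc1r, chr8:124133722-124133821, plus strand: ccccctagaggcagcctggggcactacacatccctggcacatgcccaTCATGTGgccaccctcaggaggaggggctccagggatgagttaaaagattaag
Ifit3, chr19:34560762-34560861, plus strand: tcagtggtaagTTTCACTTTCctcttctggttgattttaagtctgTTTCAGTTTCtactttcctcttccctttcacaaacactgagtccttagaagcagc
Chac1, chr2:119181484-119181583, plus strand: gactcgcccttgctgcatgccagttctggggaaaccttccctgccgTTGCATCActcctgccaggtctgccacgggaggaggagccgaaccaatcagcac

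The targeted genes were read first. Tfe3 transcripts, given here as the deposited CPM, read counts scaled to library size by the TMM method, were at 35.4, 38.4 and 37.4 in parental replicates 1, 2 and 3 and at 14.4, 8.03 and 11.4 in DKO replicates 1, 2 and 3, and the 2 sets did not overlap. Tfe3 fell by 1.67 ± 0.16 on the log2 scale (difference ± standard error of log2(CPM + 1), limma with Benjamini-Hochberg adjustment over all genes, adjusted p = 2.8e-07), and its level in the TFE3 KO libraries was 11.6, 8.44 and 12.2 CPM. Tfeb transcripts were scarcer, at 8.197, 7.87 and 10.3 CPM in parental cells and 5.27, 4.93 and 5.15 CPM in the DKO, a difference of -0.67 ± 0.18 (limma adjusted p = 0.02). In the TFEB KO line the Tfeb level was 3.67, 2.06 and 2.92 CPM, lower than in the DKO (DKO minus TFEB KO 0.68 ± 0.18, limma adjusted p = 0.049). Leaving out 1 library ended both Tfeb calls, the first without parental replicate 3, DKO replicate 1 or DKO replicate 3 (adjusted p up to 0.117) and the second without any of the 3 DKO libraries or TFEB KO replicate 2 or 3 (adjusted p up to 0.276). Reads of a 3′-end library lie near the end of the transcript and outside the edited exon, so these levels do not check the edits themselves. Mitf was at 763, 768 and 797 CPM in parental cells and 892, 903 and 832 CPM in the DKO, and although the DKO values all lay above the parental ones the difference of 0.17 ± 0.09 did not pass the test (limma adjusted p = 0.29). Tfec, the remaining member, was not among the genes of the table.

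Between 20356930 and 25469391 reads fell on genes in each of the 6 libraries, so 1 read was worth between 0.0399 and 0.0483 CPM. Libraries of 1 line differed by more than counting error, with a chi-square per degree of freedom between 6.97 and 42.7. DKO replicate 2 stood apart from DKO replicates 1 and 3 on the first principal component of the 12 libraries of the 4 lines, which held 49.6% of the variance: it was at 2.45, the other two at -22.5 and -25.0, and the parental libraries between -7.19 and 7.88. Gapdh, the glycolytic enzyme, moved with this component, at 286, 269 and 489.9 CPM in parental cells and 166, 589 and 157 CPM in the DKO (limma adjusted p = 0.69). All 10 melanocyte markers listed (such as Mitf, Sox10, Pmel, Tyr and Dct) were in the table, with a summed level of 26554 to 27422 CPM in parental and 29761 to 31668 CPM in DKO libraries. Of 12 immune markers only Lyz2 and Cd68 were in the table, with a summed level of 0.225 to 1.77 CPM in parental and 0.599 to 0.858 CPM in DKO libraries, and Ptprc, the gene of the pan-leukocyte marker CD45, was not. In bulk RNA of this kind fewer cells with a transcript and less of it per cell cannot be told apart.

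With a 2-fold change or more and p under 0.05 before adjustment, 69 genes were upregulated (0.575% of the 12010) and 46 were downregulated (0.383%) in the DKO. All 115 also had an adjusted p under 0.05 by limma and no overlap between the 3 DKO and the 3 parental values. At an adjusted p under 0.05 and any fold, 567 genes rose (4.72%) and 491 fell (4.09%), with median log2 fold changes of 0.58 and -0.47 for changes selected in this way. The median over all genes was -0.02, and 943 of these 1058 genes changed by less than 2-fold. Values of the 3 DKO and the 3 parental libraries did not overlap in 3215 genes (26.8%), 1575 higher and 1640 lower. The count at an adjusted p under 0.05 rested on the libraries: it went from 1058 to 524 without DKO replicate 1, 629 without DKO replicate 3, 600 without parental replicate 3 and 670 without parental replicate 2.

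**Figure D1:**
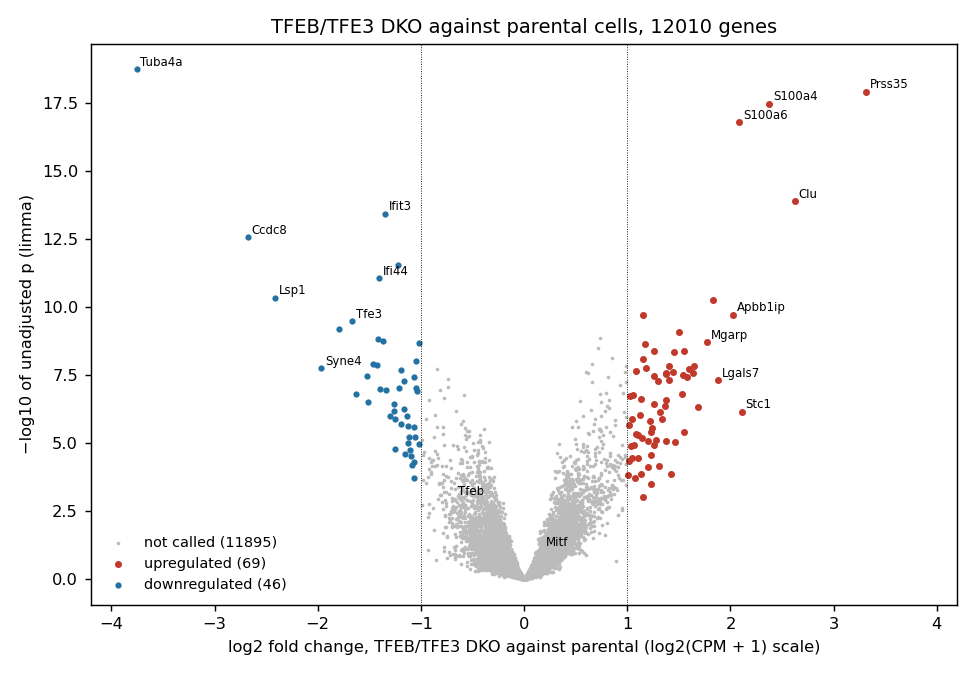
Log2 fold change of the TFEB/TFE3 DKO against parental cells (horizontal axis, log2(CPM + 1) scale) and −log10 of the unadjusted limma p (vertical axis) for 12010 genes. The dotted lines mark a 2-fold change, and the 69 upregulated and 46 downregulated genes lie outside them, with Prss35 and Tuba4a at the far ends and Mitf near the centre.

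The largest rises included genes of secreted proteins, Clu and Stc1 among them, and the calcium-binding proteins S100a4 and S100a6. Prss35, a member of the serine protease family, had no read in any parental library and stood at 9.74, 9.81 and 7.48 CPM in the DKO, where the mean of the 3 libraries was at least 66.1-fold above the floor of 3 reads in a parental library. It was equally silent in the TFE3 KO (0, 0 and 0 CPM) and present in the TFEB KO at 7.67, 7.45 and 9.02 CPM. Clu, which encodes clusterin, a secreted chaperone, was at 26.6, 31.2 and 21.7 CPM in parental and 175, 138 and 192 CPM in DKO libraries, a log2 fold change of 2.62 ± 0.15 (limma adjusted p = 3e-11). The groups lay far apart, with 10.6, 8.44 and 7.47 CPM of Clu in TFE3 KO libraries and 88.8, 67.7 and 74.9 CPM in TFEB KO libraries, so that the DKO was the highest of the 4 lines and the TFE3 KO the lowest. S100a4, a calcium-binding protein tied to cell motility and metastasis, was at 36.7, 37.5 and 39.1 CPM in parental and 202, 172 and 231 CPM in DKO libraries (2.38 ± 0.09, limma adjusted p = 1.3e-14). Its neighbour S100a6 was at 32.8, 31.1 and 34.5 CPM and 140.1, 140.1 and 147 CPM (2.08 ± 0.09, limma adjusted p = 4.7e-14). Both S100 genes were also raised in the TFEB KO (1.85 and 1.32 on the log2 scale), while in the TFE3 KO S100a6 was lower than parental (-0.68) and S100a4 did not pass the test (-0.17, limma adjusted p = 0.24).

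Several of the other leading rises were in low transcripts, whose fold change is understated by the added 1 CPM. Stc1, a secreted glycoprotein hormone of calcium and phosphate balance, was at 1.68, 1.501 and 1.98 CPM in parental and 13.6, 10.7 and 8.43 CPM in DKO libraries (2.11 ± 0.31, limma adjusted p = 8.5e-05). Apbb1ip, the Rap1 effector RIAM that activates integrins, was at 0.518, 0.409 and 0.854 CPM and 6.23, 4.64 and 5.57 CPM (2.03 ± 0.19, limma adjusted p = 1.8e-07). In both genes every DKO value lay above every value of the other 3 lines. Lgals7, a galectin known from stratified epithelia, rose by 1.88 ± 0.23 from 2.16, 3.18 and 2.07 CPM to 13.1, 9.52 and 12.6 CPM, and Mgarp, a mitochondrial protein that responds to low oxygen, by 1.77 ± 0.18 from 28.4, 32.1 and 34.7 CPM to 116, 118 and 98.7 CPM. Pecam1, an adhesion molecule best known from endothelium, went from 8.59, 8.003 and 7.73 CPM to 31.6, 25.5 and 25.5 CPM (1.64 ± 0.20, limma adjusted p = 6.9e-06), and Vwf, another endothelial gene, from 1.81, 2.36 and 3.01 CPM to 6.59, 5.08 and 5.38 CPM (0.98 ± 0.20, limma adjusted p = 0.0025). The other 4 of the 6 endothelial markers, Cdh5, Kdr, Tek and Emcn, were not in the table, and Pecam1 and Vwf together summed to 10.4 to 10.7 CPM in parental and 30.6 to 38.2 CPM in DKO libraries. Nfasc, a cell adhesion protein of axons, rose by 1.60 ± 0.19, close to its value in the TFEB KO (1.49).

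Among the largest falls were a tubulin, a scaffold protein and 5 interferon-induced genes. Tuba4a, an alpha tubulin, was at 14.1, 12.4 and 11.1 CPM in parental libraries and had no read in any DKO library, so that the parental mean was at least 86.5-fold above the floor of 3 reads in a DKO library. It also had no read in the TFE3 KO and was at 15.9, 11.5 and 11.9 CPM in the TFEB KO, close to the parental level. Ccdc8, a scaffold of the CUL7 complex, was at 18.4, 16.8 and 21.3 CPM in parental and 2.43, 2.47 and 1.48 CPM in DKO libraries, a difference of -2.68 ± 0.18 (limma adjusted p = 4.6e-10). Lsp1, an actin-binding protein of leukocytes, was at 8.499, 11.9 and 11.5 CPM and 0.639, 1.35 and 1.62 CPM, a difference of -2.41 ± 0.20 (limma adjusted p = 5.3e-08). Ccdc8 and Lsp1 were as low or lower in both single KO lines, where the differences from parental were -4.24 and -2.83 for Ccdc8 and -3.15 and -2.60 for Lsp1 (TFE3 KO first). Syne4, a linker of the nuclear envelope, fell by 1.97 ± 0.23, and Rhox5, an X-linked homeobox gene, fell by 1.80 ± 0.18, both also low in the single KO lines. Creb5, a transcription factor of the CREB family, behaved otherwise: it fell by 1.42 ± 0.15 from 12.8, 16.6 and 18.2 CPM to 4.47, 5.56 and 5.81 CPM (limma adjusted p = 9.8e-07), was low in the TFEB KO (-1.21) and was above parental in the TFE3 KO (0.54). Among the 12 largest falls the remaining 5, Slfn8, Ifit3b, Ifi44, Oasl2 and Ifit3, are induced by interferon, and the targeted gene Tfe3 is the last.

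**Figure D2:**
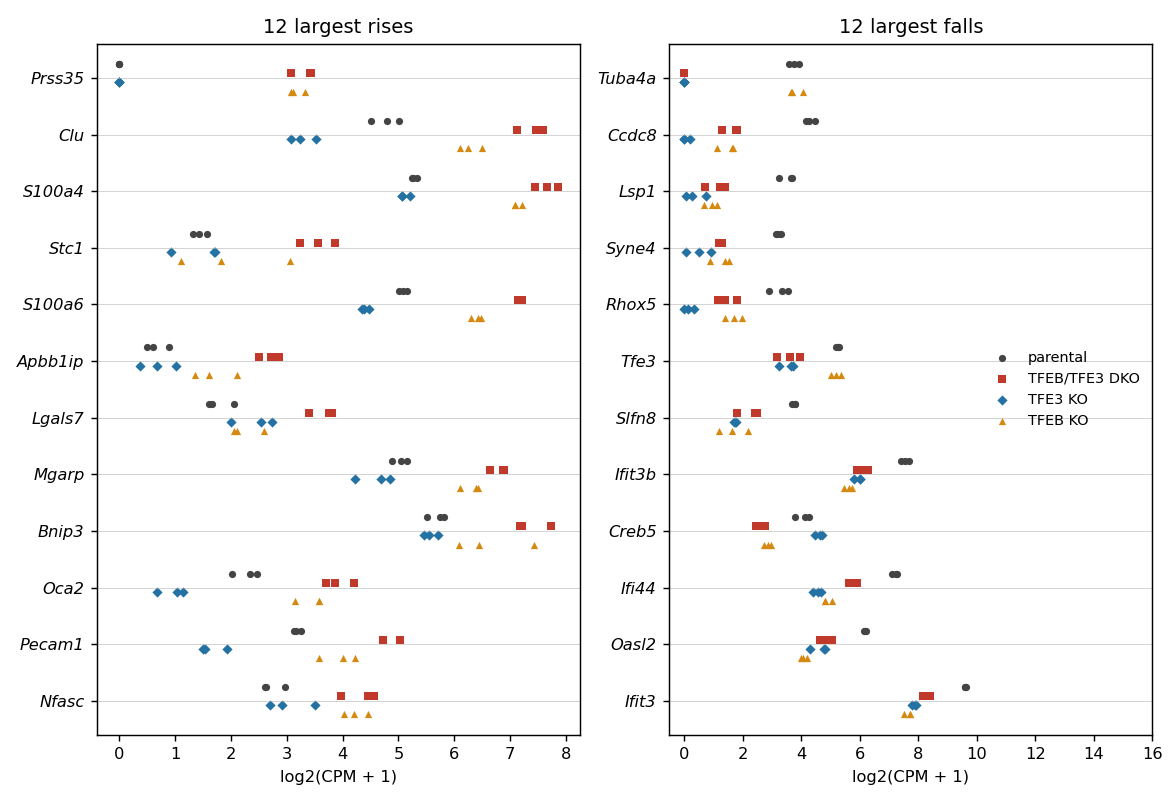
Log2(CPM + 1) in each library (1 point a library) of the 12 largest rises and 12 largest falls of the TFEB/TFE3 DKO against parental cells, with the TFE3 KO and TFEB KO lines beside them. The DKO points lie apart from the parental points in every gene, Prss35 is at 0 in parental and TFE3 KO libraries, and Tuba4a is at 0 in DKO and TFE3 KO libraries.

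The single KO lines share the 3 parental libraries with the DKO, so their fold changes are given beside those of the DKO only as levels. Over the 69 upregulated genes, chosen by the DKO value (median log2 fold change 1.28), the TFE3 KO had a median of 0.00 and the TFEB KO one of 0.64. Over the 46 downregulated genes (median -1.21 in the DKO) the TFE3 KO had -1.53 and the TFEB KO -1.40. No test was made of these medians.

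Most interferon response genes fell, and none of the measured list but Ifi27 rose at an adjusted p under 0.05 by limma. Type I interferon acts on a shared promoter element and induces antiviral effectors, which many tumour cells also express at rest. Of 60 listed genes 57 were measured, 38 fell and 1 rose at an adjusted p under 0.05 by limma, against 4.09% and 4.72% of all genes, and 10 fell by at least 2-fold. The 3 DKO values lay below the 3 parental values in 46 of the 57 and above them in 1, beside 1640 and 1575 of all 12010 genes. The list's median log2 fold change was -0.61 beside -0.02 over all genes. Ifit3, an RNA-binding antiviral effector, was at 769, 796 and 766 CPM in parental and 288, 292 and 336 CPM in DKO libraries, a difference of -1.35 ± 0.08 (limma adjusted p = 7.4e-11). Ifi44, another interferon-induced gene, was at 153, 138 and 151 CPM and 48.7, 59.7 and 57.1 CPM (-1.40, limma adjusted p = 1.1e-08), and Oasl2, of the oligoadenylate synthetase family, at 73.8, 69.9 and 71.9 CPM and 24.2, 26.3 and 31.9 CPM (-1.36, limma adjusted p = 1.1e-06). In all 3 genes the 2 sets of libraries were far apart and each set was tight. Uba7, the E1 enzyme that charges ISG15, fell by 1.02 ± 0.11, and Irf7, the factor that amplifies interferon production, fell by 0.71 ± 0.17 from 1.51, 1.55 and 1.93 CPM to 0.519, 0.338 and 1.096 CPM. Isg15 itself, a ubiquitin-like modifier, was at 528, 553 and 804 CPM in parental and 268, 480.0 and 268 CPM in DKO libraries (-0.92 ± 0.26, limma adjusted p = 0.027), and DKO replicate 2 was above replicates 1 and 3 there. The call of Isg15 was lost without parental replicate 3, DKO replicate 1 or DKO replicate 3 (adjusted p up to 0.156) and that of Irf7 without parental replicate 3, DKO replicate 1 or DKO replicate 2 (adjusted p up to 0.0614). The exception was Ifi27, a mitochondrial protein, at 589, 616 and 626 CPM and 925, 943 and 955 CPM (0.62 ± 0.08, limma adjusted p = 6.9e-06). Ifit3 and Ifit3b, the Oas1 genes and the Gbp and Slfn families have near copies in the mouse genome, and how the authors' counting split reads between them is not known.

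**Figure D3:**
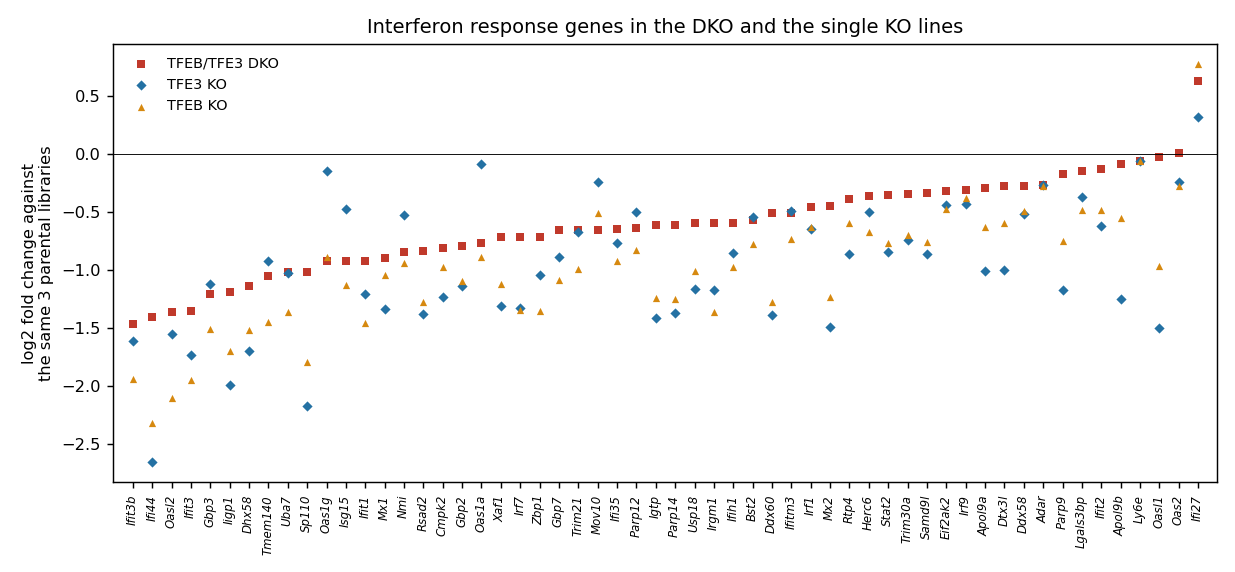
Log2 fold change against the same 3 parental libraries (vertical axis) of 56 of the 57 measured interferon response genes, 1 not being reported here, ordered by their value in the TFEB/TFE3 DKO, for the DKO, the TFE3 KO and the TFEB KO. Most DKO points lie below 0 and above those of the single KO lines, and Ifi27 at the right end is above 0 in all 3 lines.

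Genes of class I antigen presentation and of signals to immune cells moved less uniformly. Of 18 measured class I genes 5 fell and 1 rose at an adjusted p under 0.05 (median -0.27), beside 4.09% of all genes that fell and 4.72% that rose. Cd274, a checkpoint ligand gene, was in this list and in that of chemokines, cytokines and ligands, and counts among the falls of both. H2-K1, a class I heavy chain, was at 1.51, 1.14 and 0.719 CPM in parental libraries and had no read in DKO libraries, the parental mean being at least 7.74-fold above the same floor, but its level rested on few reads and its family is made of near copies. B2m, the shared light chain, was at 4335, 4507 and 3702 CPM and 3772, 3099 and 3627 CPM, and its difference of -0.26 ± 0.13 did not pass (limma adjusted p = 0.23). Psme2, a subunit of the proteasome activator PA28, fell by 0.66 ± 0.15 from 62.3, 62.2 and 73.8 CPM to 35.2, 54.3 and 37.2 CPM, Psme1 fell by 0.28 ± 0.08, and Erap1, the peptide trimmer of the endoplasmic reticulum, fell by 0.58 ± 0.17. Cd274, which encodes the checkpoint ligand PD-L1, fell by 0.91 ± 0.19 from 14.02, 16.96 and 13.8 CPM to 8.901, 5.61 and 8.29 CPM (limma adjusted p = 0.0042). The transporter Tap1 was at 21.7, 20.5 and 21.9 CPM and 18.2, 13.6 and 14.4 CPM without passing (limma adjusted p = 0.1), and Nlrc5, the transactivator of class I genes, rose by 0.48 ± 0.13. Of 23 measured chemokines, cytokines and ligands 4 fell and 2 rose (median -0.04), with Vegfa described among the hypoxia genes. Ccl5, which attracts T cells and NK cells, fell by 1.22 ± 0.09 from 94.7, 102 and 96.95 CPM to 42.6, 46.2 and 36.2 CPM (limma adjusted p = 4.2e-09). Spp1, which encodes osteopontin, rose by 1.58 ± 0.19 from 0.777, 1.55 and 1.71 CPM to 8.34, 6.57 and 3.62 CPM (limma adjusted p = 8.3e-06), with the DKO values unlike each other but all above parental. Lgals9, a galectin that binds TIM-3, fell by 0.32 ± 0.09 and the cytokine gene Tgfb1 fell by 0.68 ± 0.21. Calls that ended when 1 library was left out, with that library (line and replicate number) and the highest limma adjusted p in brackets, were those of Psme2 (DKO 1, 0.0564), Nlrc5 (parental 1 or 3, DKO 2 or 3, 0.126), Psme1 (parental 2 or 3, DKO 1, 2 or 3, 0.129), Erap1 (parental 1, 2 or 3, DKO 1 or 3, 0.148), Lgals9 (parental 1, 2 or 3, DKO 1, 2 or 3, 0.0984), Tgfb1 (parental 1, 2 or 3, DKO 2 or 3, 0.194) and Vegfa (parental 2 or 3, DKO 1, 2 or 3, 0.126).

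Lysosomal genes, the textbook targets of TFEB and TFE3, changed in both directions or did not pass the test. None of 16 measured V-ATPase subunits, which acidify the lysosome, passed an adjusted p under 0.05 (median -0.04), and their differences ran from -0.34 to 0.34. Of 45 measured lysosomal hydrolases and activators 7 rose and 3 fell (median 0.09), beside 4.72% of all genes that rose and 4.09% that fell. Gla, the alpha-galactosidase of Fabry disease whose promoter is shown above, was at 14.8, 13.6 and 18.7 CPM in parental and 7.78, 9.77 and 7.48 CPM in DKO libraries, a difference of -0.83 ± 0.16 (limma adjusted p = 0.0018), and both single KO lines lay as low (-0.75 without TFE3, -0.90 without TFEB). Hgsnat, which acetylates heparan sulfate for its breakdown, fell by 0.78 ± 0.11 from 110.1, 114 and 97.9 CPM to 54.6, 67.5 and 64.5 CPM (limma adjusted p = 3.2e-05). The beta-glucuronidase Gusb fell by 0.38 ± 0.12. In the other direction Smpd1, the acid sphingomyelinase, was at 48.6, 50.3 and 45.4 CPM and 78.6, 75.7 and 75.8 CPM, a rise of 0.66 ± 0.08 (limma adjusted p = 1.1e-05), and Ctsh, a cysteine cathepsin, rose by 0.49 ± 0.10. Ctsd, the aspartyl cathepsin, rose by 0.41 ± 0.12. Galc, Galns, Naglu and Man2b1 rose by 0.49, 0.47, 0.47 and 0.50. Of 29 membrane and delivery genes 2 rose, the peptide transporter Abcb9 by 0.64 ± 0.19 and the channel Tpcn1 by 0.50 ± 0.14, while Lamp1 was at 454, 451 and 407 CPM and 417, 401 and 441 CPM (-0.06, limma adjusted p = 0.72). The calls of several genes here rested on single libraries and were lost without them, as given in brackets with the highest limma adjusted p: Ctsd (parental 1 or 3, DKO 1 or 3, 0.127), Abcb9 (parental 2 or 3, DKO 1 or 3, 0.186), Tpcn1 (parental 2 or 3, DKO 1 or 3, 0.189), Gusb (parental 1, 2 or 3, DKO 1 or 3, 0.203), Galc (parental 3, DKO 1, 0.0534), Galns (parental 1, 2 or 3, DKO 1 or 3, 0.116), Naglu (parental 1, 2 or 3, DKO 1 or 3, 0.227) and Man2b1 (parental 1, 2 or 3, DKO 2 or 3, 0.127).

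The genes that control TFEB and TFE3 at the lysosome did not pass the test: none of 34 measured genes of folliculin, the Rag GTPases, Ragulator and mTORC1 had an adjusted p under 0.05, with a median of -0.11. Flcn, which encodes folliculin, was at 30.3, 24.5 and 30.3 CPM and 15.4, 31.9 and 17.1 CPM, with DKO replicate 2 above its fellows, and Rragd, the RagD GTPase, at 17.4, 18.3 and 24.05 CPM and 16.4, 23.2 and 15.8 CPM. Of 46 autophagy genes 5 rose and none fell (median 0.02), beside 4.72% of all genes that rose and 4.09% that fell. The DKO values lay above the parental ones in 7 of the 46 and below them in 3, beside 1575 and 1640 of all 12010 genes. Bnip3, a mitophagy receptor that low oxygen induces, was at 44.6, 54.98 and 52.3 CPM in parental and 212, 147 and 144 CPM in DKO libraries, a rise of 1.69 ± 0.24 (limma adjusted p = 6.3e-05). Its relative Bnip3l rose by 0.39 ± 0.12, the LC3 gene Map1lc3b by 0.40 ± 0.10, the membrane scramblase Atg9a by 0.43 ± 0.10 and the fusion adaptor Plekhm1 by 0.48 ± 0.13. Of these, the calls lost when 1 library was left out, shown with the highest limma adjusted p, were those of Bnip3l (parental 1, 2 or 3, DKO 1 or 3, 0.207), Map1lc3b (parental 1, DKO 1 or 3, 0.0646) and Plekhm1 (parental 2, DKO 1 or 3, 0.105). Sqstm1, the cargo receptor p62, was at 714, 719.8 and 638 CPM and 665, 590.2 and 716 CPM (-0.07, limma adjusted p = 0.67).

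Pigment genes and MITF targets rose in part. Of 24 measured melanosome and pigment genes 5 rose and none fell (median 0.10), beside 4.72% of all genes that rose and 4.09% that fell. The risers include Met, a growth factor receptor gene that is also in the list of MITF targets below. Oca2, the chloride channel of the melanosome, was at 4.53, 3.05 and 4.05 CPM in parental and 12.1, 17.4 and 13.5 CPM in DKO libraries (1.65 ± 0.19, limma adjusted p = 5e-06), and at 1.05, 0.606 and 1.21 CPM in the TFE3 KO, on the other side of parental. Mc1r, the melanocortin receptor, rose by 0.50 ± 0.09 from 299, 296 and 306 CPM to 434, 411 and 432 CPM (limma adjusted p = 0.00074), in a stretch of chromosome 8 where neighbouring genes were also higher. Slc24a4, an ion exchanger tied to pigmentation, rose by 0.92 ± 0.21, and Trpm1, a melanocyte channel, by 0.73 ± 0.20, a call lost without parental replicate 1, parental replicate 2 or DKO replicate 1 (adjusted p up to 0.0935). The enzymes of melanin synthesis did not pass: Tyr was at 127, 133 and 134 CPM and 154, 147 and 124 CPM (limma adjusted p = 0.74) and Dct at 18263, 17963 and 17027 CPM and 21304, 21027 and 20722 CPM (limma adjusted p = 0.2). The matrix protein Pmel was at 3634, 3588 and 4092 CPM and 3756, 4711 and 3659 CPM (0.09, limma adjusted p = 0.67), and Gpnmb at 6104, 6026 and 5455 CPM and 7608, 6616 and 8355 CPM (0.36, limma adjusted p = 0.055).

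Among 21 measured MITF targets in proliferation and metabolism 4 rose and 2 fell, beside 4.72% of all genes that rose and 4.09% that fell. The list is mixed: it also holds Axl, at which the study saw no binding of the family. It further holds Sesn2 and Deptor, which the study reports as higher when MITF is lost. Met, the receptor of hepatocyte growth factor, was at 212, 206 and 191 CPM in parental and 509, 411 and 471 CPM in DKO libraries, a rise of 1.18 ± 0.14 (limma adjusted p = 5.6e-06). Ppargc1a, the coactivator PGC-1α of mitochondrial biogenesis, was at 152, 149 and 128 CPM and 337, 308 and 324 CPM (1.17 ± 0.12, limma adjusted p = 1.2e-06). For both genes the DKO libraries stood above all libraries of the other 3 lines. The hexokinase Hk2 rose by 0.62 ± 0.12 and Hif1a, the oxygen-sensitive factor, by 0.30 ± 0.06. Cdkn1a, the cell-cycle inhibitor p21, fell by 0.53 ± 0.10 from 789, 822 and 768 CPM to 563, 556 and 531 CPM (limma adjusted p = 0.0017), and the cyclin Ccnd1 fell by 0.43 ± 0.10, a call lost without DKO replicate 1 (adjusted p = 0.0541). Of 15 measured neural crest and melanoma state genes Sox9 rose by 0.68 ± 0.13 from 46.4, 47.5 and 48.99 CPM to 85.7, 65.5 and 81.7 CPM and Gfra1, a receptor subunit of glial ligands, by 0.81 ± 0.16, while Sox10 was at 708, 762 and 723 CPM and 753, 695 and 845 CPM.

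Many genes of the ATF4 response, which supplies amino acids and answers stress on translation, rose. Of 38 measured members 18 rose and none fell at an adjusted p under 0.05 by limma, and the median log2 fold change was 0.34. Over all genes 4.72% rose and 4.09% fell. Nupr1, a small stress-induced chromatin protein, was at 38.8, 37.2 and 35.3 CPM in parental and 83.4, 84.6 and 82.5 CPM in DKO libraries (1.15 ± 0.13, limma adjusted p = 3.3e-06), well apart and with hardly any spread in the DKO. Trib3, a pseudokinase that feeds back on ATF4, was at 73.3, 66.6 and 58.4 CPM and 116, 101 and 117 CPM (0.75 ± 0.12, limma adjusted p = 0.00031), and Chac1, which degrades glutathione, at 49.4, 53.6 and 53.4 CPM and 86.1, 83.6 and 83.7 CPM (0.69 ± 0.10, limma adjusted p = 0.00014). Both stood below parental in the TFE3 KO, at -1.06 and -0.63. Ddit4, an inhibitor of mTORC1 that low oxygen also induces, rose by 0.80 ± 0.16, the glycine transporter Slc6a9 by 0.78 ± 0.15 and the cystine transporter Slc7a11 by 0.71 ± 0.21 from 13.6, 12.3 and 16.9 CPM to 24.1, 25.5 and 21.96 CPM. The alanyl-tRNA synthetase Aars rose by 0.64 ± 0.09 and the asparagine synthetase Asns by 0.34 ± 0.10. Atf4 itself was at 1050.2, 1156 and 1010.2 CPM and 1577, 1150.1 and 1623 CPM (0.42 ± 0.12, limma adjusted p = 0.025), and DKO replicate 2 lay within the parental range. The list had 11 risers without parental replicate 3, DKO replicate 1 or DKO replicate 3, and Atf4 was then not among them. Single calls ended without the libraries in brackets, shown with the highest limma adjusted p, for Atf4 (parental 1 or 3, DKO 1 or 3, 0.148), Slc7a11 (parental 1 or 2, DKO 1, 2 or 3, 0.141), Asns (parental 1 or 2, DKO 1, 2 or 3, 0.122) and Sel1l (parental 2 or 3, DKO 1 or 3, 0.0891). Of 27 measured genes of chaperones and the unfolded protein response only Herpud1 (0.72 ± 0.08) and Sel1l (0.31 ± 0.08), both of the degradation machinery of the endoplasmic reticulum, rose, and the chaperone Hspa5 was at 1979.7, 1873 and 1601 CPM and 1937, 1668 and 2151 CPM.

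Parts of the hypoxia response and of glycolysis rose as well. Of 30 measured hypoxia genes 16 rose and none fell (median 0.42), and the DKO values lay above the parental ones in 22. Over all 12010 genes 4.72% rose and 4.09% fell, and the DKO values lay above the parental ones in 1575. Pgf, a growth factor of vessels, was at 1.25, 1.05 and 0.3596 CPM in parental and 6.03, 3.29 and 3.34 CPM in DKO libraries (1.46 ± 0.26, limma adjusted p = 0.00066), and Selenbp1, a selenium-binding protein, at 8.46, 7.23 and 9.66 CPM and 31.3, 18.3 and 16.1 CPM (1.23 ± 0.29, limma adjusted p = 0.0084). Vegfa rose by 0.55 ± 0.16 from 26.7, 21.9 and 22.97 CPM to 35.4, 37.9 and 32.6 CPM, Pdk1, which restrains pyruvate entry into mitochondria, by 0.68 ± 0.17, and the lysyl oxidase Loxl2 by 0.99 ± 0.23. In Bnip3, Pgf and Selenbp1 DKO replicate 1 was the highest of the 3, and without it the list had 7 members with an adjusted p under 0.05. Of 33 measured glycolysis genes 13 rose and none fell (median 0.31). The lactate exporter Slc16a3 was at 99.8, 100.3 and 95.9 CPM and 225, 169.9 and 192 CPM (0.97 ± 0.14, limma adjusted p = 8.5e-05), the hexokinase Hk1 at 55.2, 59.2 and 54.7 CPM and 96.2, 80.9 and 97.5 CPM (0.69 ± 0.13), and glycogen phosphorylase Pygl rose by 0.74 ± 0.13. Aldoa rose by 0.36 ± 0.10 and Pkm by 0.38 ± 0.10, the latter from 1367, 1525 and 1346 CPM to 1915, 1614 and 1991 CPM with DKO replicate 2 the lowest of the 3. The glycolysis count went from 13 to 4 without DKO replicate 1, to 7 without DKO replicate 3, to 6 without parental replicate 1 and to 8 without parental replicate 3. In the same way the calls of single genes ended, shown with the highest limma adjusted p, for Vegfa (parental 2 or 3, DKO 1, 2 or 3, 0.126), Pdk1 (DKO 1, 0.0708), Loxl2 (DKO 1, 0.0598), Selenbp1 (DKO 1, 0.0788), Aldoa (parental 1 or 3, DKO 1 or 3, 0.139) and Pkm (parental 1 or 3, DKO 1 or 3, 0.128). In the TFEB KO the list medians were 0.26 for hypoxia and 0.31 for glycolysis, and in the TFE3 KO 0.03 and 0.04.

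Some sterol synthesis genes also rose, by smaller steps. Of 34 measured genes of sterol and fatty acid synthesis 10 rose and none fell (median 0.21), and the 3 DKO values lay above the 3 parental ones in 17. Over all 12010 genes 4.72% rose and 4.09% fell, and the DKO values lay above the parental ones in 1575. Msmo1, a demethylase of the pathway, was at 104, 103 and 95.96 CPM in parental and 153, 149.5 and 139 CPM in DKO libraries (0.54 ± 0.08, limma adjusted p = 4.1e-05). Mvd, the mevalonate decarboxylase, rose by 0.93 ± 0.19, with DKO values of 146, 99.9 and 159 CPM, Sqle, the squalene epoxidase, by 0.49 ± 0.10, Nsdhl by 0.58 ± 0.12 and Hmgcs1, the HMG-CoA synthase, by 0.39 ± 0.09. The fatty acid synthase Fasn was at 374, 334 and 334 CPM and 409, 315 and 486 CPM and did not pass (limma adjusted p = 0.62). In the single KO lines the median of the sterol and fatty acid list was 0.17 (TFE3 KO) and 0.22 (TFEB KO), close to that of the DKO. Of 43 matrix, adhesion and contractile genes 6 rose and none fell: S100a4 and S100a6 as above, Loxl2, the collagens Col1a1 (0.72 ± 0.19) and Col1a2 (0.52 ± 0.13), and N-cadherin, Cdh2 (0.34 ± 0.10). Some of these calls were lost without 1 library, shown with the highest limma adjusted p: Loxl2 (DKO 1, 0.0598), Col1a1 (parental 3, DKO 1 or 3, 0.129), Col1a2 (parental 1 or 2, 0.0769) and Cdh2 (parental 1, 2 or 3, DKO 1, 2 or 3, 0.111). Col1a1 was at no more than 1.52 CPM in any of the 6 libraries, and 3 of the 8 listed fibroblast markers (Col1a1, Col1a2 and Postn, and not Col3a1, Dcn, Lum, Pdgfra or Thy1) were in the table, with a summed level of 10.9 to 13.0 CPM in parental and 16.1 to 18.2 CPM in DKO libraries. Of 6 keratinocyte markers Krt14 had no read in the 6 libraries and Cdh1 stood at 0.899 to 1.41 CPM in parental and 1.81 to 1.93 CPM in DKO libraries.

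Genes of the small ribosomal subunit and the proteasome were mostly lower where they changed. Of 31 measured proteins of the small ribosomal subunit 12 fell and none rose (median -0.33), and the DKO values lay below the parental ones in 20. Over all 12010 genes 4.09% fell and 4.72% rose, and the DKO values lay below the parental ones in 1640. Rps12 was at 2900.2, 3304 and 3261 CPM in parental and 2065, 2009.7 and 2278 CPM in DKO libraries, a difference of -0.57 ± 0.10 (limma adjusted p = 0.00041), and the differences of Rps28 and Rps15a were -0.40 ± 0.09 and -0.39 ± 0.09. The count was 3 without parental replicate 2 or parental replicate 3, 4 without DKO replicate 1 and 7 after quantile normalization, and these genes have many processed copies in the genome that can share reads. In the single KO lines the median was 0.04 (TFE3 KO) and -0.06 (TFEB KO). Of 32 proteasome subunits 4 fell and 1 rose: Psmc6, an ATPase of the cap, fell by 0.38 ± 0.07, the values of Psma2, Psmd8 and Psma7 were -0.40 ± 0.10, -0.30 ± 0.09 and -0.28 ± 0.07, and the lid subunit Psmd7 rose by 0.24 ± 0.07. Of 76 respiratory chain and ATP synthase genes 3 fell, Ndufab1, Cox8a and Ndufb2, at -0.36 ± 0.09, -0.35 ± 0.10 and -0.28 ± 0.08, and none rose (median -0.15), a share near the 4.09% of all genes that fell and so no result about this list. Leaving out 1 library ended many of these calls, shown with the highest limma adjusted p: Rps28 (parental 3, DKO 1, 0.0528), Rps15a (parental 3, 0.0559), Psma2 (parental 2, DKO 1, 0.0614), Psmd8 (parental 2 or 3, DKO 1 or 3, 0.135), Psma7 (parental 2 or 3, DKO 1 or 2, 0.0881), Psmd7 (parental 1, 2 or 3, DKO 1 or 3, 0.205), Ndufab1 (DKO 1, 0.0592), Cox8a (parental 2 or 3, DKO 1 or 3, 0.162) and Ndufb2 (parental 1, 2 or 3, DKO 1, 2 or 3, 0.128).

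In the other lists few members passed, and their counts stand beside the 4.72% of all genes that rose and the 4.09% that fell. The lists of S phase, G2/M, E-box factors, fatty acid oxidation and TGF-beta had at most 3 members in either direction, which is no result about these lists, and their members are given as single genes. Of 24 measured genes of the BCL2 family and p53 targets 5 fell and none rose: Cdkn1a as above, the death effector Bax (-0.51), the p53 ligase Mdm2 (-0.39), Trp53inp1 (-0.46) and Zmat3 (-0.30). Mdm2 went from 155, 155 and 145 CPM to 113, 112 and 122 CPM (limma adjusted p = 0.0038), with no overlap. Of 18 MAPK output and feedback genes Phlda1 and the AP-1 factor Jun fell, at -0.39 ± 0.06 and -0.44 ± 0.08, beside Ccnd1, and Ier3 rose by 0.62 ± 0.14. Of 33 genes of NRF2, glutathione and thioredoxin 5 rose and 1 fell, led by the glutathione transferases Gsta4 (2.03, 2.55 and 2.07 CPM to 7.34, 6.53 and 9.62 CPM, a rise of 1.45 ± 0.17) and Gsta2 (1.34 ± 0.20), which have close relatives in a gene cluster, and with Gpx1 at -0.41 ± 0.08. Of 44 S phase genes 2 rose, Rrm2 (0.38 ± 0.08) and Gins3 (0.41 ± 0.12), and 2 fell, Ccne1 (-0.30) and Rfc3 (-0.27), and of 43 G2/M genes 3 fell, Cks1b (-0.38), Bub3 (-0.30) and Birc5 (-0.29). Of 23 E-box factors Mxi1, Hif1a and Bhlhe40 rose and Mxd3 fell. Of 30 genes of fatty acid uptake and oxidation Ppargc1a and the carnitine transferase Cpt2 (0.42 ± 0.09) rose and Hadh (-0.33) fell. Of 19 genes of TGF-beta, BMP and WNT responses only Tgfb1 passed, lower in the DKO. Calls lost without 1 library, again with the highest limma adjusted p, were those of Trp53inp1 (parental 1 or 3, DKO 1 or 3, 0.194), Zmat3 (parental 1 or 3, DKO 1, 2 or 3, 0.168), Ier3 (DKO 1, 0.0635), Gins3 (parental 1, 2 or 3, DKO 1 or 3, 0.175), Rfc3 (parental 1 or 3, DKO 1 or 2, 0.162), Cks1b (parental 1, 2 or 3, DKO 1 or 3, 0.127), Bub3 (parental 2 or 3, DKO 1 or 3, 0.157), Birc5 (parental 2 or 3, DKO 1, 2 or 3, 0.1403), Bhlhe40 (parental 1 or 2, DKO 1 or 2, 0.105) and Hadh (parental 1, 2 or 3, DKO 1 or 3, 0.236).

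**Figure D4:**
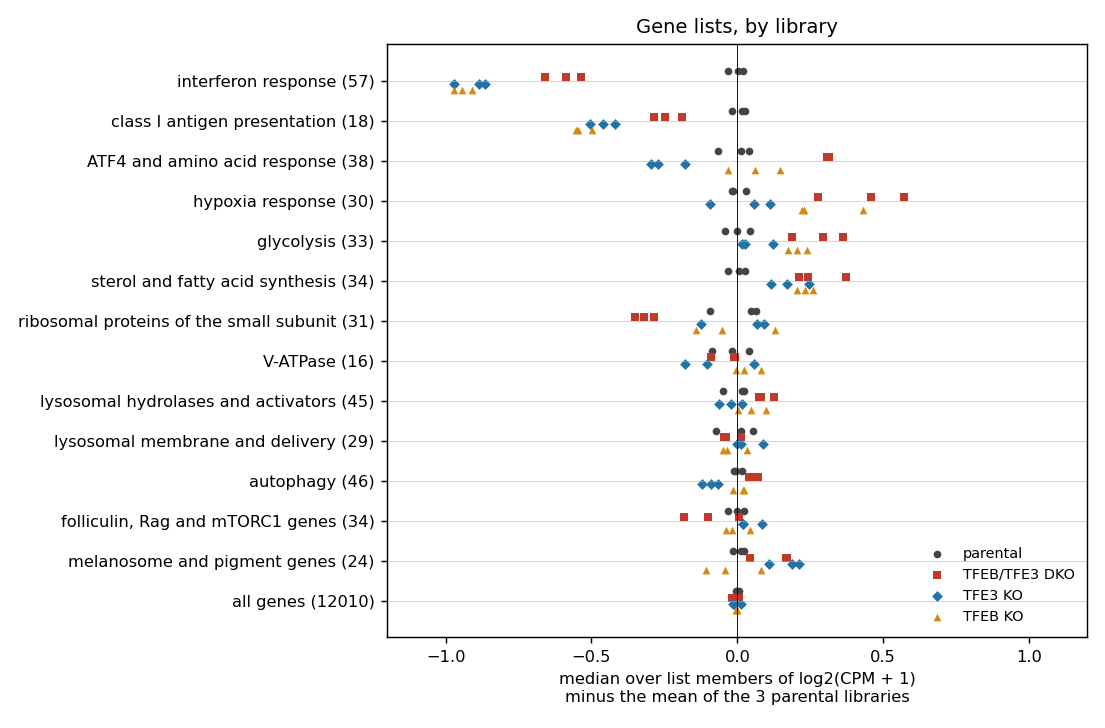
Median over the measured members of each gene list (number in brackets) of log2(CPM + 1) minus the mean of the 3 parental libraries, 1 point a library, for parental, TFEB/TFE3 DKO, TFE3 KO and TFEB KO cells. DKO libraries lie below the parental ones for interferon, class I and small ribosomal subunit genes, above them for ATF4, hypoxia, glycolysis and sterol genes, and among or next to them for the V-ATPase, lysosomal membrane and autophagy lists, with all genes near 0 at the bottom.

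Set against the TFE3 KO, which differs from the DKO in TFEB, 204 genes were higher and 141 lower in the DKO by at least 2-fold with p under 0.05 before adjustment (345 in all, 2.87% of the 12010), and 105 of the 141 also had an adjusted p under 0.05 by limma. The count was 595 without DKO replicate 2 and 555 without TFE3 KO replicate 1. Clu differed by 4.11 ± 0.15 on the log2 scale, Pecam1 by 3.17 ± 0.20, S100a6 by 2.76 ± 0.09 and S100a4 by 2.55 ± 0.09, all higher in the DKO. Fkbp10, a collagen chaperone, was at 23.4, 21.1 and 24.97 CPM in the DKO and 1.097, 1.34 and 0.513 CPM in the TFE3 KO, around a parental level of 8.46, 6.82 and 9.71 CPM (DKO minus TFE3 KO 3.63 ± 0.17, limma adjusted p = 3.4e-13). F11r, a tight junction protein, lay likewise, at 32.4, 26.7 and 37.4 CPM, 2.89, 3.55 and 3.45 CPM and 12.99, 14.01 and 9.98 CPM (2.94 ± 0.19). Creb5 was lower in the DKO (-1.96 ± 0.15). At an adjusted p under 0.05 by limma 14.5% of all genes were higher and 14.0% lower in the DKO than in the TFE3 KO. The interferon list had 26 of 57 members higher and 1 lower, the higher ones with Ifi44 by 1.25 ± 0.11 and Ifit3 by 0.38 ± 0.08. In the ATF4 list 25 of the 38 members were higher in the DKO and none lower, with Nupr1 at 1.85 ± 0.13, Trib3 at 1.81 ± 0.12 and Slc7a11 at 1.64 ± 0.21, and in the hypoxia list 15 of 30 were higher. Small ribosomal subunit genes were lower in 19 of 31 and S phase genes in 20 of 44, with 1 S phase gene higher. Gapdh, which moves with the first principal component, was lower in the DKO without passing (DKO minus TFE3 KO -1.38 ± 0.54, limma adjusted p = 0.059). TFE3 KO replicates 2 and 3 lay at 34.9 and 24.5 on that component and replicate 1 at 5.79, and its part in this comparison was not tested.

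Set against the TFEB KO, which differs from the DKO in TFE3, 18 genes were higher and 5 lower in the DKO by at least 2-fold (23 in all, 0.192%), and 150 were higher (1.25%) and 112 lower (0.933%) at an adjusted p under 0.05 by limma. The count of 23 became 44 without DKO replicate 2 and 41 without TFEB KO replicate 1. The 5 lower genes were Tuba4a, the targeted Tfe3 (-1.61 ± 0.16), Lmo1, Rab7b and Aldh1a1. Rab7b, a GTPase of late endosomes, was at 1.24, 1.26 and 2.29 CPM in the DKO, 5.01, 6.35 and 5.27 CPM in TFEB KO libraries and 1.77, 0.728 and 2.74 CPM in parental cells (DKO minus TFEB KO -1.35 ± 0.21, limma adjusted p = 0.0011), so that here the TFEB KO was the line that stood apart. Lmo1, a LIM-only cofactor, was lower in the DKO than in the TFEB KO (-1.10 ± 0.14). Among the higher genes Pak3, a p21-activated kinase, was nearly silent in the TFEB KO, at 0, 0.228 and 0 CPM, and stood at 8.74, 8.75 and 5.86 CPM in the DKO and 2.42, 2.41 and 3.37 CPM in parental cells (DKO minus TFEB KO 3.02 ± 0.20, limma adjusted p = 2.3e-09). Crabp2, which carries retinoic acid to the nucleus, was at 10.7, 9.91 and 10.3 CPM in the DKO and 3.04, 3.34 and 2.22 CPM in the TFEB KO (1.56 ± 0.19, limma adjusted p = 3.3e-05). Stc1, Lgals7, Spp1 and Clu were higher in the DKO by 1.56 ± 0.31, 1.41 ± 0.23, 1.13 ± 0.19 and 1.11 ± 0.15, and the difference of Stc1 did not pass the adjusted p without DKO replicate 1 or TFEB KO replicate 2 (up to 0.0597). The interferon list was higher in the DKO in 16 members and lower in none, with Ifi44 at 0.91 ± 0.11 and Oasl2 at 0.73 ± 0.14. In the ATF4 list 7 of 38 members were higher in the DKO and none lower. In the small ribosomal subunit list 5 of 31 were lower and none higher. Met was higher by 0.92 ± 0.14 and Ppargc1a by 0.73 ± 0.12, both at an adjusted p under 0.05. No glycolysis or sterol gene passed and 1 hypoxia gene did, which is near the share of all genes and so no result about these lists.

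The DKO was also compared with the sum of the 2 single KO effects, on the log2 scale and in the same fit, so that a positive departure means a higher level in the DKO than the sum predicts. The parental libraries enter this difference as a whole, so a gene that is lower by like amounts in all 3 KO lines has a positive departure. A departure of at least 1 with an adjusted p under 0.05 by limma was found in 390 genes (3.25%), 306 positive and 84 negative. Slfn2, an interferon-induced gene of lymphocyte quiescence, had the largest, at 4.54 ± 0.30: it was at 45.6, 53.8 and 50.4 CPM in parental, 23.7, 20.4 and 26.1 CPM in DKO, 3.54, 2.38 and 5.41 CPM in TFE3 KO and 10.5, 9.87 and 11.1 CPM in TFEB KO libraries. The DKO thus lay between parental and both single KO lines. Ccdc8, Ifi44 and Lsp1, with departures of 4.39 ± 0.25, 3.57 ± 0.15 and 3.34 ± 0.29, are low in all 3 KO lines. The single KO falls of Ccdc8 and Lsp1 add up to more than their parental log2 level. Any DKO level, even no read, would therefore give Ccdc8 and Lsp1 a positive departure. For Slfn2 the falls add up to nearly its parental log2 level, so almost any DKO level would do the same. Genes bound in this way were not taken out of the 390. Crabp2 (3.58 ± 0.26) was instead above parental in the DKO and below it in the TFE3 KO, at 0.249, 0.1298 and 0.793 CPM. Usp11, a deubiquitinase, was almost lost in the TFE3 KO, at 0.1496, 0.0866 and 0.1400 CPM, and stood at 7.72, 10.05 and 7.64 CPM in parental and 17.6, 11.5 and 18.3 CPM in DKO libraries (3.27 ± 0.28). At an adjusted p under 0.05 and any size, 7.26% of all genes had a positive and 5.10% a negative departure. The interferon list had 49 of its 57 members with a positive and 1 with a negative departure under this rule, and the ATF4 list 16 of 38 with a positive one. Of 18 class I genes 10 had a positive and none a negative departure. On the other side, 15 of 44 S phase and 5 of 31 small ribosomal subunit genes had a negative departure and none a positive one. Of 43 G2/M genes 6 had a negative and 1 a positive departure.

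On the negative side Lmo1 was above parental in the TFE3 KO and below it in the DKO, at 26.4, 27.8 and 35.5 CPM in parental, 56.4, 65.9 and 50.9 CPM in TFE3 KO and 15.2, 19.7 and 15.9 CPM in DKO libraries (-2.03 ± 0.20, limma adjusted p = 2.2e-07). Dhrs2, a short-chain dehydrogenase, was at 38.8, 34.4 and 27.7 CPM in the TFE3 KO and 12.7, 9.04 and 13.9 CPM in the DKO (-1.57 ± 0.26). Gsta4 was higher than parental in all 3 KO lines, by 1.45 in the DKO, by 1.78 without TFE3 alone and by 1.23 without TFEB alone, which gives a departure of -1.56 ± 0.24. Gsta1 (-1.92 ± 0.60) and Smo, the Hedgehog signal transducer (-1.64 ± 0.52), had widely spread values. Their departures were no longer called when 1 of 7 libraries was left out, for Gsta1 (parental 1 or 2, DKO 1 or 3, TFE3 KO 2 or 3, TFEB KO 2, 0.1199) and Smo (parental 1 or 2, DKO 1 or 3, TFE3 KO 2, TFEB KO 2 or 3, 0.137).

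**Figure D5:**
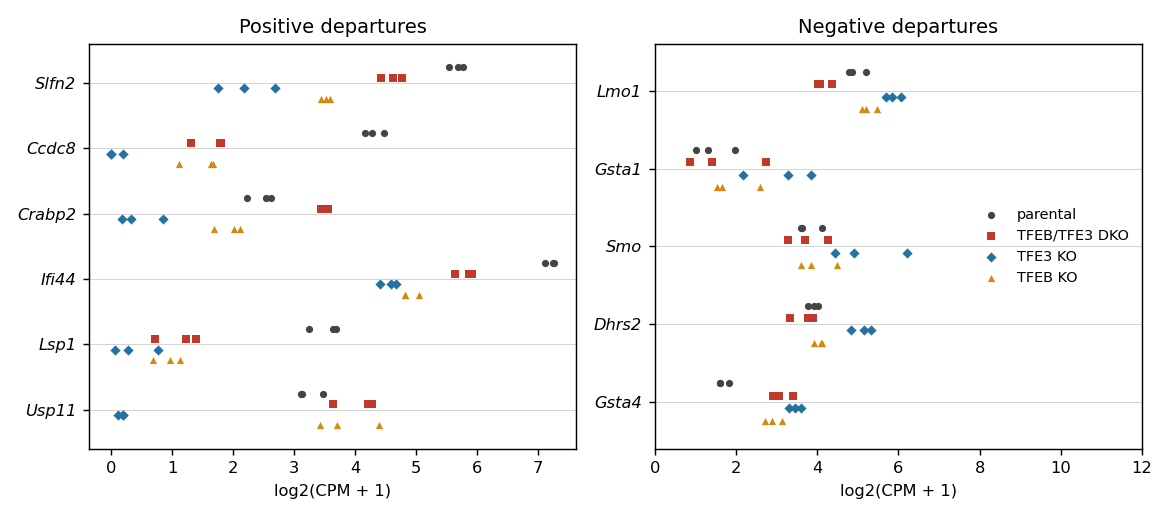
Log2(CPM + 1) in each library of the 6 genes with the largest positive departure and 5 with large negative departures of the DKO from the sum of the single KO effects. In Slfn2, Ccdc8, Ifi44 and Lsp1 all 3 KO lines lie below parental, in Crabp2 and Usp11 the TFE3 KO lies far below the DKO, and in Lmo1 and Dhrs2 the TFE3 KO lies above the other lines.

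Because the lines are clones, neighbouring genes were examined for shared shifts. The median log2 fold change of the DKO was taken over sliding windows of 100 neighbouring genes with a mean of at least 5 CPM (9318 genes). Windows ran from -0.21 to 0.38, and 1 stretch passed a shift of 0.3, at chr8:77976980-112352662. It held 195 genes with a median of 0.27 in the DKO beside 0.23 for TFEB KO and -0.01 for TFE3 KO libraries, and 69 of them rose and none fell at an adjusted p under 0.05 by limma. Herpud1, Nlrc5 and Man2b1 are among the named genes that lie in it, so their rises stand beside that of their neighbours. Mc1r, Map1lc3b and Mvd lie on the same chromosome amid neighbours with medians of 0.24, 0.25 and 0.25. The positions of the other named genes are not all given here, so more of the rises above may lie in this stretch or near it. With windows of 50 genes 2 stretches passed the same shift, chr8:85396326-106738514 with 117 genes (median 0.33) and chr8:117670127-130011597 with 79 genes (median 0.27), and the second holds Mc1r, Map1lc3b and Mvd, so their rises also stand beside those of neighbours, of which 26 of the 79 rose and none fell at an adjusted p under 0.05 by limma. Outside the stretch of the wider windows 67 genes were upregulated and 46 downregulated, and 498 rose and 491 fell at an adjusted p under 0.05.

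The 5 motifs of the promoter stretches shown above were counted on both strands in the 300-base windows of 11661 genes with a position. CACGTG was present in 10.2% of all windows, in 6 of 67 upregulated genes (8.96%) and in 3 of 45 downregulated genes (6.67%). TCACGTGA, each copy of which also holds CACGTG, was present in 1.74% of all windows and in none of the 112 upregulated and downregulated genes. TCATGTG was present in 2.43% of all windows, in 3 upregulated genes (4.48%) and in 3 downregulated genes (6.67%). The interferon element (GAAA, any 2 bases, GAAA) was present in 3.41% of all windows, in 2 upregulated genes (2.99%) and in 9 downregulated genes (20%), and in 27 of 56 interferon list members (48.2%). TGATGNAA was present in 2.31% of all windows, in 1 upregulated gene (1.49%) and in 2 downregulated genes (4.44%), and in 4 of 32 members of the ATF4 list (12.5%). These last 2 motifs were chosen after the values of the lists had been seen. In the lists of lysosomal genes CACGTG was present in 11 of 44 hydrolases (25.0%) and in 7 of 29 membrane genes (24.1%) and TCACGTGA in 6 of these 29 (20.7%), and the melanosome list held TCATGTG in 6 of 24 (25.0%). A match is a string of letters and not a bound site, and these shares were not tested.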

How the data were processed

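RNA was measured by 3′-end sequencing (500 ng total RNA a library) in 24 libraries of 8 lines, and the lines lacking MITF entered only the estimate of the spread and were otherwise not analysed here. The values deposited are a normalized signal per gene, close to CPM scaled by TMM, made by the authors from reads on the mm39 build. The submitters' processing notes list FastQC 0.11.9, Trim Galore 0.6.5, cutadapt 2.10, STAR 2.7.8a and edgeR, and the counting tool and annotation are not given in the sources used here. Whole reads were recovered from the steps of the values (at least 99.99% of the values of a library were within 0.1 of a whole read, and edgeR on these reads called 359 genes), so that totals are known: 20356930 to 25469391 reads in the 6 libraries compared. Floors of 3 reads cover counting error only.

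Tests were made with limma 3.58.1 in R 4.3.3 on log2(CPM + 1) in a single fit of the cell line over the 24 libraries, with 16 residual degrees of freedom, a variance trend and no filter. Upregulated and downregulated mean a 2-fold change or more with p under 0.05 before adjustment, the cut-offs of the study. The study applied them to the edgeR quasi-likelihood test, which called 359 genes on the recovered reads. The limma counts given here are therefore not like those of the study. The other rule was a Benjamini-Hochberg adjusted p under 0.05 over all 12010 genes, two-sided. Fold changes on this scale understate those of low genes. edgeR 4.0.16 on the recovered reads, other pseudocounts, a filter, other scalings, a replicate block and leaving out each library were the alternatives. On simulated data for the DKO against parental comparison (12010 genes, 100 changed by each fold) limma called 94% of 2-fold and 74% of 1.5-fold changes and 0.0677% of unchanged genes, and edgeR 96%, 80% and 0.0762%. The simulated reads varied independently in each gene around the parental mean, with a fixed dispersion. They lacked the variation shared by many genes that set libraries of a line apart here, so these rates do not carry over to the real libraries. The plan assumed plain CPM, and the columns are CPM divided by the TMM factor.

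The comparison, the gene lists and the markers were chosen with earlier results of these data known. The genes named were the family, the 12 largest rises and 12 largest falls with an adjusted p under 0.05, at least 5 CPM in the higher line and no overlap, the 4 members of each list with the smallest p among such genes and up to 2 abundant further members, and the 6 largest departures each way with at least 5 CPM in 1 of the 4 lines, and 3 genes that the rule or the lists name are not reported here. Genes chosen after their values were seen were Asns, Bnip3l, Cdh2, Ddit4, Erap1, F11r, Fkbp10, Flcn, Galc, Galns, Gapdh, Gusb, Hmgcs1, Irf7, Isg15, Lamp1, Man2b1, Naglu, Pak3, Pdk1, Psmd7, Psme1, Rab7b, Rragd, Selenbp1, Slc6a9, Slc7a11, Tap1, Trp53inp1, Tyr, Vegfa and Aldh1a1. Sequences and positions were read from GRCm39 with GENCODE M39. Python 3.11.15 with numpy 2.4.6, pandas 2.3.3 and matplotlib 3.10.9 made the tables and figures.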

Additional observations from a re-analysis of the deposited data

Results flagged for a closer look

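By the direct test, the DKO departed from the sum of the single KO effects in 390 genes, 306 positive and 84 negative. The rule was a departure of at least 1 on the log2 scale with a limma adjusted p under 0.05. Genes whose departure could only be positive were not taken out of these counts. The values are in log2 units with their standard errors. Positive departures were 4.54 ± 0.30 for Slfn2, 4.39 ± 0.25 for Ccdc8, 3.58 ± 0.26 for Crabp2, 3.57 ± 0.15 for Ifi44, 3.34 ± 0.29 for Lsp1 and 3.27 ± 0.28 for Usp11. Those of Ccdc8 and Lsp1 were bound to be positive, because the single KO falls add up to more than the parental log2 level. For Slfn2 the falls add up to nearly that level, so a clearly negative departure was not possible. Negative departures were -2.03 ± 0.20 for Lmo1, -1.92 ± 0.60 for Gsta1, -1.64 ± 0.52 for Smo, -1.57 ± 0.26 for Dhrs2 and -1.56 ± 0.24 for Gsta4. The KO lines were grown from isolated clones, so the departure of the genotypes and the differences between clones cannot be told apart.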

How the results depend on the processing

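Against parental cells the count of 115 upregulated and downregulated genes was 359 with edgeR, 254 with a pseudocount of 0.25, 38 with a pseudocount of 5, 62 with a mean of at least 5 CPM and 109 to 172 when 1 library was left out (lowest without DKO replicate 1, highest without DKO replicate 2). The 1058 genes with an adjusted p under 0.05 became 542 when only the 6 libraries compared were fitted and 524 to 1302 without 1 library (lowest without DKO replicate 1, highest without DKO replicate 2). Against the TFE3 KO the count of 345 was 792 with edgeR, 633 and 127 with the lower and higher pseudocount, 226 with the filter and 255 to 595 without 1 library (lowest without TFE3 KO replicate 2, highest without DKO replicate 2). Against the TFEB KO the count of 23 was 172, 98, 4 and 7 in the same order and 19 to 44 without 1 library (highest without DKO replicate 2). The 390 departures became 142 with a pseudocount of 5, 252 with the filter and 340 to 554 without 1 library. Without 1 library the list counts ran from 11 to 16 (ATF4, 18 with all libraries), 4 to 13 (glycolysis, 13), 7 to 15 (hypoxia, 16), 27 to 40 (interferon, 39), 3 to 15 (small ribosomal subunit, 12, and 7 after quantile normalization) and 7 to 10 (sterol, 10). The single shifted stretch of 195 genes on chromosome 8 became 2 stretches of 117 and 79 genes (196 in all) with windows of 50. A lower added count lets lower genes pass a 2-fold change, and the filter tests fewer genes, while the cause of the other moves was not tested. Of 138 named genes with a call, none changed direction and 71 kept the call in every alternative run, as did 9 of 11 departures, 11 of 12 differences from the TFE3 KO and 1 of 14 from the TFEB KO.

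Replicate numbers did not pair the libraries: deviations of same-numbered DKO and parental libraries correlated at 0.145, -0.525 and -0.553, and those of different numbers at 0.170 on average. With a replicate block the counts were 115, 1073, 349, 23 and 398 for the 5 comparisons in the order above, and 18, 13, 15, 41, 14 and 11 for the lists in the order above, and 1 named gene, Abcb9, lost its call.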

Other observations

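Other widely expressed genes than Gapdh also differed between libraries of 1 line more than between the lines. Pfn1, which encodes the actin regulator profilin, was at 3.75, 4.37 and 17.3 CPM in parental replicates 1, 2 and 3 and at 8.66, 18.8 and 2.38 CPM in DKO replicates 1, 2 and 3 (limma adjusted p = 0.94). Gstp1, a glutathione transferase, was at 9.79, 7.18 and 22.6 CPM in parental and 9.42, 28.2 and 3.57 CPM in DKO libraries (limma adjusted p = 0.92), and Rpl15, of the large ribosomal subunit, at 12.7, 11.3 and 28.6 CPM and 16.3, 28.1 and 7.43 CPM (limma adjusted p = 0.95). In all 3 genes DKO replicate 2 was the highest of the DKO libraries, as it was in Gapdh. These 3 genes were chosen after their values were seen, and no cause was tested.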
